A study of Mus musculus with 16 samples.

Results

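The genes described here encode subunits of the mitochondrial respiratory chain and ATP synthase, with the complex I assembly factors that share the Nduf prefix. They were taken by symbol, as probes whose gene symbol starts with Nduf, Uqcr, Cox4 to Cox8 or Atp5 or is Sdha to Sdhd, and by detection, with a detection p under 0.05 on both arrays of at least 1 treatment group. Of 104 probes for 82 symbols, 89 probes for 73 genes met both conditions, among 12282 detected probes of 25697 on the array. They fell into 33 genes named for complex I subunits, 5 complex I assembly factors, 3 complex II subunits, 5 of complex III, 11 of complex IV, 15 of ATP synthase, and Ndufs5-ps, a pseudogene whose transcripts and those of its parent gene may not be told apart by 1 probe. The 9 symbols without a detected probe were Atp5k, Cox4i2, Cox6b2, Cox7b2, Cox8b, Cox8c, Ndufs1, Uqcrfs1 and Uqcrq, and nothing is said of their transcripts. Just inside the detection limit lay a probe of Ndufv3, with a detection p of 0.0113 on the weaker array of its best group, and one of Sdhb, with 0.00877, and just outside lay Cox6b2, with 0.11. Ndufb11 was detected in the 3 h experiment but not in the 6 h experiment, so 73 genes were tested at 3 h and 72 at 6 h.

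The cells were primary bone marrow macrophages of wildtype c57Bl6/J mice, male and 10 weeks old. The groups were dexamethasone (Dex, 1 µM overnight) plus lipopolysaccharide (LPS), LPS after the ethanol (EtOH) vehicle, Dex alone, and the vehicle alone, called unstimulated. Each group stood in an experiment with 3 h of LPS and in another with 6 h, which makes 8 groups of 2 arrays and 16 arrays. Since the labels describe the arrays of a group as technical replicates, every p-value below reflects array-to-array spread and leaves out that of separate cultures. Dex is a synthetic ligand of the glucocorticoid receptor, and LPS is a bacterial wall component sensed by Toll-like receptor 4.

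The respiratory chain sits in the inner mitochondrial membrane. Complex I takes electrons from NADH and complex II from succinate. Complex III passes them to cytochrome c and complex IV to oxygen, and ATP synthase uses the proton gradient built up on the way. Most subunits are encoded in the nucleus, and those measured here all are. In macrophages, strong LPS activation is known to shift energy metabolism from respiration towards glycolysis, and succinate oxidation by complex II is known as a source of signals for cytokine production.

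Promoters of these genes are known for binding sites of NRF1, GABP (also called NRF2), YY1 and the estrogen-related receptors (ERR), and glucocorticoid receptor acts through its own elements. RefSeq (GRCm38.p6) gave a window of 250 bases before and 50 bases after the start site for 63 of the 73 genes, and 5 are shown without the 50 bases, 5′ to 3′ on the gene's strand. Cox7a1 had the largest rise with Dex plus LPS at 3 h, Uqcr11 and Uqcrh were among the 8 largest and hold a GABP match, and Atp5h and Ndufa8 hold an NRF1 match. Capitals mark the matches, of which Cox7a1 has none. The windows are chr7:30183921-30184170 (plus strand) for Cox7a1, chr10:80406822-80407071 (minus) for Uqcr11, chr4:116075071-116075320 (minus) for Uqcrh, chr11:115419920-115420169 (minus) for Atp5h and chr2:36049339-36049588 (minus) for Ndufa8.
Cox7a1: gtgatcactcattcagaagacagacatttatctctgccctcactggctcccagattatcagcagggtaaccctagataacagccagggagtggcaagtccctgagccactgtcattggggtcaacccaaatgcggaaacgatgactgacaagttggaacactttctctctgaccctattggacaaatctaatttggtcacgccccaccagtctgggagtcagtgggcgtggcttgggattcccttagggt
Uqcr11: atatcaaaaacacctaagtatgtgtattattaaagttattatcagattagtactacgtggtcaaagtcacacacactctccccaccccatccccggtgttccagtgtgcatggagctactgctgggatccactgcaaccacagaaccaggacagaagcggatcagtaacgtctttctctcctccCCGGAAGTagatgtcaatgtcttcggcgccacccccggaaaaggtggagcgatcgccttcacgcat
Uqcrh: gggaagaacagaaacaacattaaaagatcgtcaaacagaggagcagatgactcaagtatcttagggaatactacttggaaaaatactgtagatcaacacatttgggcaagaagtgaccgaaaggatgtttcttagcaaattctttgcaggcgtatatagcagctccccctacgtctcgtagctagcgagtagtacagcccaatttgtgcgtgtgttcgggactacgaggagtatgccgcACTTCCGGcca
Atp5h: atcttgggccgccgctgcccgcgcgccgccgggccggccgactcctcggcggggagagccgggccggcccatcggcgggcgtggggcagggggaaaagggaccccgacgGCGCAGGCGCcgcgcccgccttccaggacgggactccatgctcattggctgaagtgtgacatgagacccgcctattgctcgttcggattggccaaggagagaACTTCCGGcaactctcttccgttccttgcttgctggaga
Ndufa8: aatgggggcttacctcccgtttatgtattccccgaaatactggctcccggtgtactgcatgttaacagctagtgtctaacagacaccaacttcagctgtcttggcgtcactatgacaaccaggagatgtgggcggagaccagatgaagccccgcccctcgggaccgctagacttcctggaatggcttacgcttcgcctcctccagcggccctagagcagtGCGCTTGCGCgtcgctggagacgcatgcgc

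The GABP letters CCGGAAGT, searched on both strands, began at base -66 of Uqcr11 and, read on the other strand, at -11 of Uqcrh and -39 of Atp5h. The NRF1 motif, searched in the same way, began at -141 of Atp5h and, on the other strand, at -30 of Ndufa8, where -1 is the last base before the start site. Over the 300-base windows, the NRF1 motif was found for 15 of 63 respiratory chain genes (23.8%), against 11.9% of 6902 genes tested here and 5.19% of 27025 genes in the table. The YY1 letters AAGATGGCG were found for 7 (11.1%), against 3.81% and 1.64%. GABP letters were found for 4 (6.35%, against 9.75% and 4.31%), ERR letters TCAAGGTCA for 2 (3.17%, against 0.377% and 0.466%), and the glucocorticoid response element for 0 (against 0.275% and 0.537%). Genes that rose with Dex plus LPS at 3 h held the NRF1 motif in 8 of 35 cases, and the other genes of the set in 7 of 28. These matches describe letters in a window and not binding.

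The treatment labels were checked on Fkbp5, a glucocorticoid receptor target, and on the LPS-induced cytokine genes Tnf and Il6, in unnormalized signal. At 6 h Fkbp5 stood at 1272 and 1517 with Dex plus LPS, 280 and 271 with LPS, 3147 and 2832 with Dex and 218 and 283 in unstimulated cells. Tnf stood at 28479 and 35414 with Dex plus LPS, 55140 and 56988 with LPS, 1266 and 853 with Dex and 1605 and 2175 in unstimulated cells. In the 3 h experiment Fkbp5 was at 1763 and 1982 with Dex plus LPS, but at 227 to 275 on the 6 other arrays, those labelled Dex included. Tnf was at 59741 to 63509 and Il6 at 1789 to 3064 on all 8 arrays of the 3 h experiment, those labelled unstimulated and Dex included. The Tnf probe was saturated on all 8, at over 80% of the array's highest signal, so its values are lower bounds and do not rank the groups. The 3 h arrays labelled unstimulated and Dex therefore go against their labels. They are part of the fits of all 3 h arrays, whose main counts are also given without them, and the contrasts drawn against them are given last and as labelled. Of 9 macrophage marker symbols 7 were detected in both experiments, and Emr1, not among them, is an older name of the detected Adgre1. No T cell, natural killer, dendritic, stromal or erythroid marker was detected. The summed macrophage signal at 3 h was 193139 and 200400 with Dex plus LPS, against 210159 and 213480 with LPS. At 6 h it was 200491 and 203443 with Dex plus LPS, against 184206 and 194727 with LPS. Its part in the results was not tested. Of 4 B cell markers Cd79b was detected in both experiments, with normalized signals of 59.0 and 74.1 with Dex plus LPS, 55.7 and 57.4 with LPS, 89.1 and 91.4 with Dex and 100.3 and 129 in unstimulated cells at 6 h. At 3 h it had 63.2 and 73.0 with Dex plus LPS, against 51.9 and 61.2 with LPS, without overlap. Of 3 mast cell and basophil markers Fcer1a was detected at 3 h, at 29.3 to 65.5. The part of neither in the results was tested. Of 6 markers of neutrophils and their precursors 5 were detected, with summed normalized signals of 3572 to 4171 over the 3 h arrays and 2036 to 2907 over the 6 h arrays. At 6 h the neutrophil sum was 2036 and 2276 with Dex plus LPS, against 2695 and 2907 with LPS, and its part in the results was not tested.

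At 3 h, respiratory chain transcripts were higher together with Dex plus LPS than with LPS. With limma and Benjamini-Hochberg adjustment over all genes, 37 of 73 genes rose at an adjusted p under 0.05 and 0 fell (49 had an unadjusted p under 0.05), while 17.0% of 8032 genes tested rose and 14.7% fell. The median change of the 73 genes was 0.33 on the log2 scale, against 0.04 over all genes, and 65 of 73 changes were positive. The rise was small: Cox7a1 alone reached 2-fold, as did 1.16% of all genes, while 2.28% of all genes fell by that much. On 56 of 73 genes both Dex plus LPS arrays lay above both LPS arrays, as for 37.4% of all genes, and on 43 they lay above the 6 other arrays of the experiment, doubted ones included, as for 15.9%. In bulk RNA, a change in the RNA of each cell and a change in the cells present cannot be told apart. Without the 4 doubted arrays in the fit 30 genes rose and 0 fell, while 12.0% of all genes rose and 11.5% fell.

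**Figure D1:**
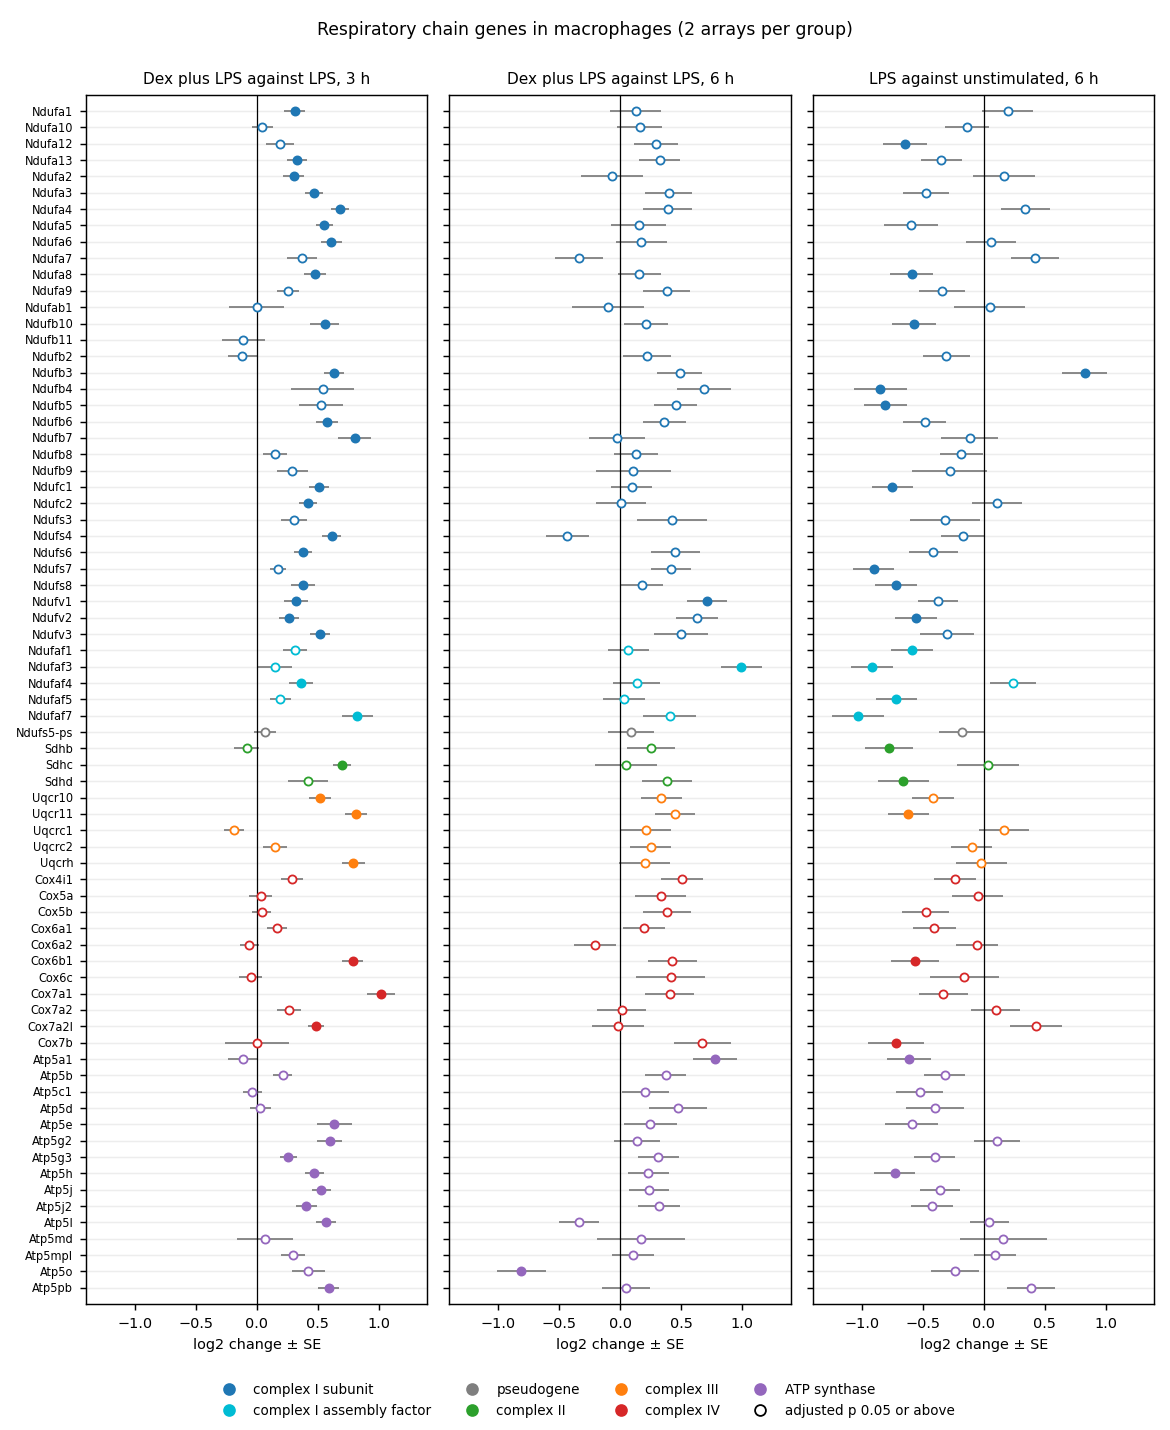
Log2 change ± SE of the 73 genes, grouped by complex, for Dex plus LPS against LPS at 3 h and 6 h and for LPS against unstimulated at 6 h (2 arrays per group), with filled points at an adjusted p under 0.05. At 3 h 37 points are filled and all lie right of 0, at 6 h 4 are filled with Dex plus LPS, and 20 of the 21 filled points for LPS lie left of 0.

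Complex I, the entry point for NADH electrons, gave 20 of the 37 rises, among 33 genes. Ndufa4, named for complex I and later placed in complex IV, had normalized signals of 23264 and 23599 with Dex plus LPS, against 14127 and 15111 with LPS. Its change was 0.68 ± 0.07 (log2, SE; adjusted p = 0.00174). Ndufb7, an accessory subunit on the intermembrane space side, had 1251 and 1087 with Dex plus LPS, against 725 and 615 with LPS (0.80 ± 0.14, adjusted p = 0.00704). In both genes the Dex plus LPS arrays lay above the LPS arrays with no overlap. Ndufb3, of the membrane arm, had 5535 on both Dex plus LPS arrays, against 3582 and 3560 with LPS (0.63 ± 0.08, adjusted p = 0.00289). Ndufa13, the brightest complex I probe, was among the genes that rose. Of the assembly factors, Ndufaf7, a methyltransferase needed to build complex I, had 481 and 496 with Dex plus LPS, against 312 and 244 with LPS (0.82 ± 0.13, adjusted p = 0.00554). Ndufaf4 also rose and the 3 other assembly factors did not pass the test.

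In complex II, Sdhc, a membrane anchor subunit, rose alone. It had 5629 and 5270 with Dex plus LPS, against 3351 and 3352 with LPS (0.70 ± 0.07, adjusted p = 0.00141). Sdhb, the iron-sulfur subunit, changed by -0.08 ± 0.10 (adjusted p = 0.57), and its 3 probes ran from -0.08 to 0.48. Complex III gave 3 rises of 5 genes. Uqcr11, a small subunit whose promoter is shown above, had 15963 and 16786 with Dex plus LPS, against 9330 and 9293 with LPS (0.81 ± 0.09, adjusted p = 0.00166). Uqcrh, the hinge protein next to cytochrome c1, had 30370 and 29394 with Dex plus LPS, against 17198 and 17347 with LPS (0.79 ± 0.09, adjusted p = 0.00231). The pairs of arrays stood far apart in both genes. Uqcrc1, a core subunit, changed by -0.18 ± 0.08 and did not pass the test (adjusted p = 0.136).

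Complex IV, taken by gene symbol and so without Ndufa4, gave 3 rises among 11 genes (27.3%), with a median change of 0.16. Cox7a1, the isoform known from heart and skeletal muscle, had 427 and 358 with Dex plus LPS, against 198 and 189 with LPS. That is 2.03-fold (1.02 ± 0.11, adjusted p = 0.00174). Its ubiquitous counterpart Cox7a2 had 1894 and 2086 with Dex plus LPS, against 1671 and 1637 with LPS, a change of 0.27 ± 0.10 that did not pass the test (adjusted p = 0.0787). Cox7a2l, which encodes a related protein, rose by 0.49 ± 0.07 (adjusted p = 0.00413). Cox6b1, a subunit on the intermembrane space side, had 35362 and 32982 with Dex plus LPS, against 19749 and 19835 with LPS (0.79 ± 0.08, adjusted p = 0.0016), and both of its probes rose. Cox4i1, Cox6a1 and the muscle isoform Cox6a2 changed by 0.29, 0.16 and -0.06 and did not pass the test.

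ATP synthase gave 8 rises of 15 genes, with a median change of 0.41. Of the genes for the membrane ring subunit c, Atp5g2 had 5174 and 4865 with Dex plus LPS, against 3058 and 3595 with LPS (0.60 ± 0.10, adjusted p = 0.00694). Atp5g3 had 57125 and 58347 with Dex plus LPS, against 48578 and 47845 with LPS. Its probe was saturated on both Dex plus LPS arrays, at over 80% of the array's highest signal, so its rise is at least 1.20-fold (adjusted p = 0.0347). Atp5h of the peripheral stalk had 8467 and 8071 with Dex plus LPS, against 5984 and 5934 with LPS (0.47 ± 0.08, adjusted p = 0.00611). Atp5a1 and Atp5b, for the catalytic head, changed by -0.11 ± 0.12 and 0.21 and did not pass the test. Atp5b was saturated on 1 Dex plus LPS array. Over the 12 genes with several probes, 28 in all, 16 probes rose and 0 fell, and 9 genes had all probes of the same sign. These probes include the brightest one of each gene, already counted above. No share over all probes is set beside them, so they describe agreement between probes only.

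**Figure D2:**
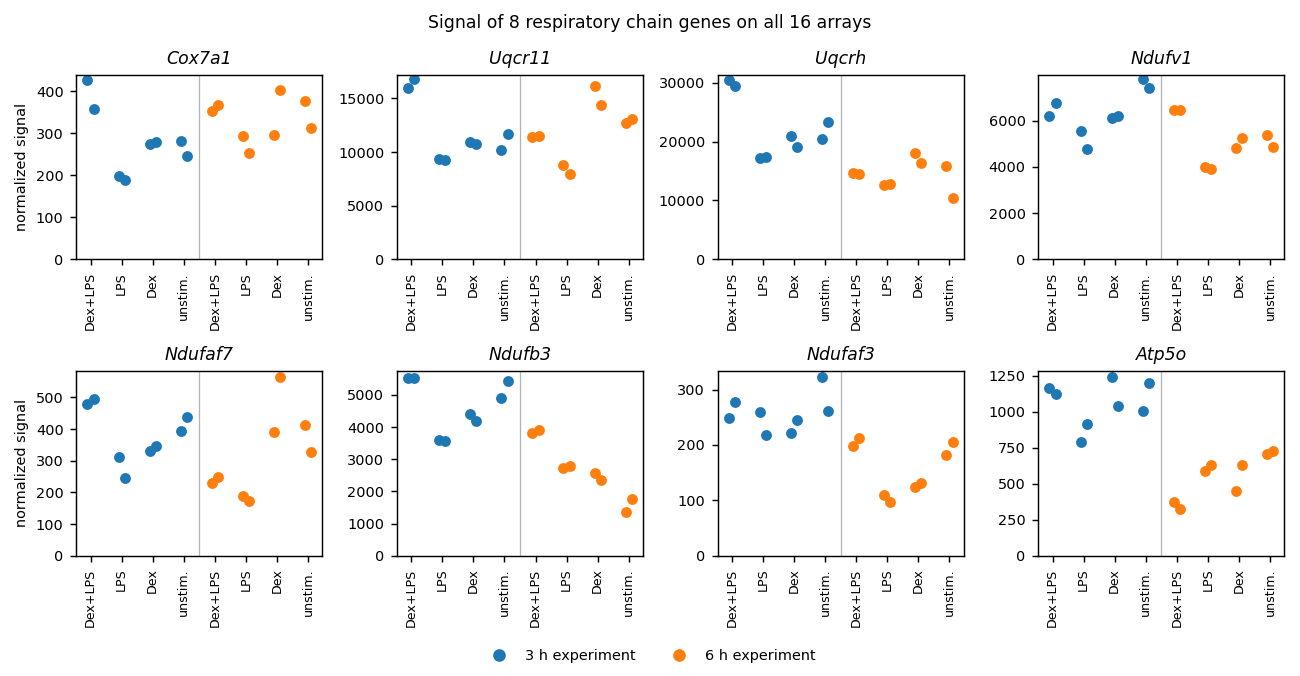
Normalized signal (linear, from 0) of 8 respiratory chain genes on the 16 arrays, with 3 h arrays in blue and 6 h arrays in orange and 2 points per group. For Cox7a1, Uqcr11, Uqcrh and Ndufaf7 both Dex plus LPS points lie above the 6 other points of the 3 h experiment, and for Atp5o they are the lowest points of the 6 h experiment.

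The 8 largest rises at 3 h were Cox7a1, Ndufaf7, Uqcr11, Ndufb7, Uqcrh, Cox6b1, Sdhc and Ndufa4, and each passed the test whichever array was left out. The number of genes that rose was 29 when arrays were scaled by their medians, where 1 gene fell, while 13.2% of all genes rose and 17.4% fell, so that 43.3% of all calls were rises, against 53.6% with quantile normalization.

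Other gene lists moved in the same contrast, so the rise is not set apart from them. The shares of all genes there were 17.0% higher and 14.7% lower. Of 70 genes for the mitochondrial ribosome, which makes the chain's mitochondrially encoded subunits, 32 rose and 1 fell, with a median change of 0.29. Mrpl45 (1.14 ± 0.19), Mrps25 (0.97 ± 0.13) and Mrpl42 (0.96 ± 0.08) rose most, and Mrps6 fell (-0.51 ± 0.12). Of 48 genes for the cytosolic ribosome, taken as a set of abundant transcripts, 25 rose and 0 fell (31 had an unadjusted p under 0.05), with a median of 0.31, led by Rps13 (0.78 ± 0.07). Genes of the tricarboxylic acid cycle and pyruvate entry were mixed, with 5 rises and 3 falls of 19 and a median of -0.02. Idh3b and Idh3g, of NAD-linked isocitrate dehydrogenase, rose by 0.57 ± 0.07 and 0.53 ± 0.08. Pdp1, the pyruvate dehydrogenase phosphatase, fell (-0.61 ± 0.12), as did Pdk1, one of the opposing kinases (-0.49 ± 0.08), and Cs, citrate synthase (-0.32 ± 0.08).

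Of 22 assembly factors with other symbols 6 rose and 2 fell. Sdhaf1, which helps mature the iron-sulfur subunit of complex II, rose by 0.90 ± 0.12, and Cox18 (-0.74 ± 0.15) and Coa5 (-0.69 ± 0.08) fell. Of 15 genes for mobile carriers and ubiquinone synthesis 4 rose and 0 fell (6 had an unadjusted p under 0.05), led by Dhodh, which feeds electrons to ubiquinone (0.93 ± 0.15). Of 14 regulators of mitochondrial biogenesis 3 rose and 1 fell. They were Polrmt (0.44 ± 0.07), Tfb2m (0.40 ± 0.10) and Tfb1m (0.34 ± 0.10), of the mitochondrial transcription machinery, and Gabpb1 (-0.41 ± 0.09), a GABP subunit. Of 11 carriers, uncoupling and redox genes 4 rose and 0 fell (4 had an unadjusted p under 0.05), led by Txnrd2 (0.73 ± 0.12).

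**Figure D3:**
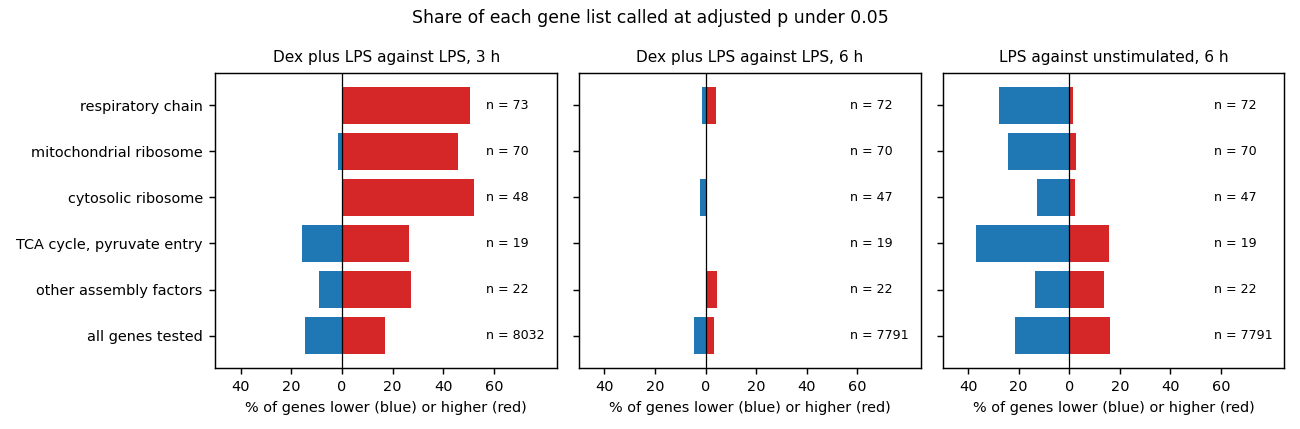
Percent of the genes of each list that were higher (red, right) or lower (blue, left) at an adjusted p under 0.05, with the number of genes tested. At 3 h the respiratory chain (50.7% higher), the mitochondrial ribosome and the cytosolic ribosome stand furthest above the 17.0% of all genes. The tricarboxylic acid cycle list lies at 26.3% and the other assembly factors at 27.3%.

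At 6 h few of these genes passed the test in the same contrast, Dex plus LPS against LPS. The median residual SD was 0.202 at 6 h, against 0.113 at 3 h (log2), so the counts of both experiments differ in precision. Of 72 genes 3 rose and 1 fell, against 3.21% and 4.61% of 7791 genes (limma; 16 had an unadjusted p under 0.05). None passed at 2-fold, as 1.31% of all genes did upwards and 2.45% downwards. The median change was 0.23, against 0.06 over all genes, and 63 of 72 changes were positive. On 43 genes both Dex plus LPS arrays lay above both LPS arrays, as for 36.7% of all genes. The excess of the median over all genes was 0.17, and 0.06 under either form of median scaling, which itself shifted the median of all genes to 0.20 or -0.01. With median scaling 5 genes (6.94%) rose and 0 fell, against 8.19% and 3.62% of all genes, and 69.3% of all calls were rises, against 41.1% with quantile normalization. With median scaling over probes detected on all arrays 41 of 72 changes were positive, and 49 with the authors' processed values.

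Ndufaf3, an early assembly factor of complex I, had 199 and 212 with Dex plus LPS, against 109 and 97.3 with LPS (0.99 ± 0.17, adjusted p = 0.00706). Atp5a1, the alpha subunit of the catalytic head, had 4862 and 4907 with Dex plus LPS, against 2799 and 2890 with LPS (0.78 ± 0.18, adjusted p = 0.0282). Ndufv1, the flavoprotein that oxidises NADH, had 6473 and 6455 with Dex plus LPS, against 3978 and 3912 with LPS (0.71 ± 0.16, adjusted p = 0.0268). In these 3 genes no LPS array reached a Dex plus LPS array. Atp5o, which links the catalytic head to the peripheral stalk, had 372 and 326 with Dex plus LPS, against 590 and 631 with LPS (-0.81 ± 0.20, adjusted p = 0.0352), again without overlap. Leaving out any of the 4 arrays ended the calls of Atp5a1, Ndufv1 and Atp5o, with adjusted p up to 0.182, 0.176 and 0.244. Leaving out LPS replicate 2 or either Dex plus LPS array ended that of Ndufaf3, with adjusted p up to 0.0947. Among genes outside the set, Sdhaf1 rose (1.46 ± 0.26), as did Ppargc1b, a coactivator of mitochondrial biogenesis (1.56 ± 0.24), Polg2 (0.68 ± 0.17) and the redox gene Txn2 (0.83 ± 0.18), and Rpl7a fell (-1.13 ± 0.28). No gene of the mitochondrial ribosome or of the tricarboxylic acid cycle list passed the test in this contrast (limma; 5 and 6 had an unadjusted p under 0.05).

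**Figure D4:**
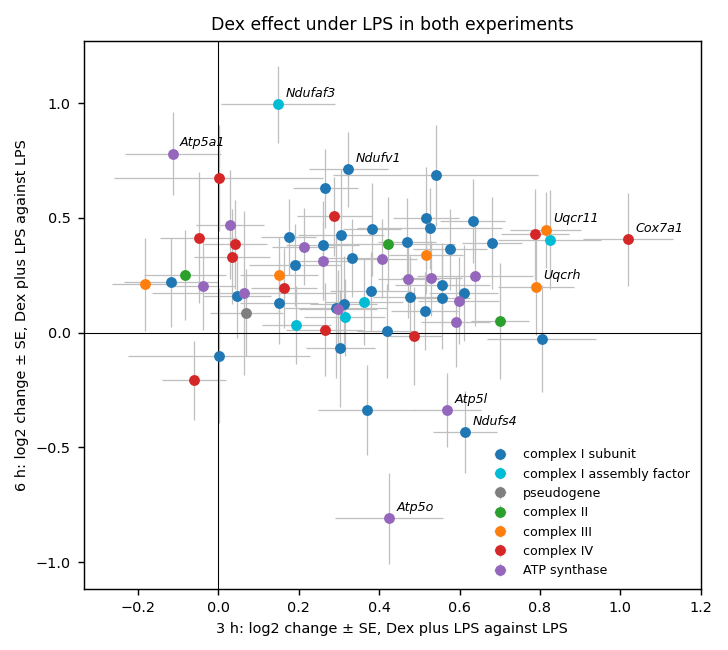
Change ± SE of 72 genes with Dex plus LPS against LPS (log2), at 3 h on the horizontal and at 6 h on the vertical axis, coloured by complex, with 9 genes named. Most points lie in the upper right, where 57 genes are positive at both times, and the points show no slope.

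Of the genes that passed the test in either experiment, Ndufv1 alone rose in both, by 0.32 ± 0.10 at 3 h (adjusted p = 0.0481) and 0.71 ± 0.16 at 6 h. At 3 h it had 6179 and 6745 with Dex plus LPS, against 5562 and 4785 with LPS. Its 3 h call ended when any array but LPS replicate 1 was left out (adjusted p up to 0.2), without the doubted arrays (adjusted p = 0.108) and with median scaling (adjusted p = 0.103). Of the 37 genes that rose at 3 h, 32 were positive at 6 h, with a median 6 h change of 0.23, against 0.25 for the 35 other genes. Across the 72 genes the 3 h and 6 h changes had a Pearson correlation of -0.08 and a Spearman correlation of -0.05, while over 7458 genes the Pearson correlation was 0.59. These points are genes measured on shared arrays and not independent replicates. Both changes were positive for 79.2% of the 72 genes, against 38.3% of all genes, with quantile normalization, and the 6 h share moved with the scaling as given above.

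In the fit of all 16 arrays, 0.483% of 7458 genes had a larger and 0.644% a smaller Dex effect under LPS at 6 h than at 3 h. Of the 72 genes 0 were larger and 3 smaller (limma; 16 had an unadjusted p under 0.05 in either direction). They were Atp5o (-1.23 ± 0.24, adjusted p = 0.0384), Ndufs4, an accessory subunit that stabilises complex I (-1.05 ± 0.18, adjusted p = 0.031), and Atp5l, subunit g of ATP synthase (-0.91 ± 0.16, adjusted p = 0.031). Ndufs4 had 6979 and 6952 with Dex plus LPS at 6 h, against 9725 and 9078 with LPS, and 9780 and 10222 with Dex plus LPS at 3 h, against 6678 and 6390 with LPS. Atp5l had 4657 and 4756 with Dex plus LPS at 6 h, against 5830 and 6057 with LPS, and 13980 and 13698 with Dex plus LPS at 3 h, against 9216 and 9446 with LPS. Both genes thus had opposite order of groups in the 2 experiments, without overlap. All 3 calls ended when the doubted 3 h arrays were left out of the fit (adjusted p = 0.0914), and when any of 12 single arrays was left out. For Ndufs4 the 4 probes disagreed, from -0.43 to 0.04 at 6 h, and the mean of probes ended its call (adjusted p = 0.0975). RNA extraction also differed between the experiments, and its part cannot be told apart from that of the LPS time.

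LPS against unstimulated at 6 h gave mostly falls among the genes that passed the test. Of 72 genes 1 rose and 20 fell, against 16.2% and 21.6% of 7791 genes, so the share that fell (27.8%) was near that of all genes. The median change was -0.34, against -0.09 over all genes, and 54 of 72 changes were negative. The falls were 9 of 32 complex I genes, 4 of 5 assembly factors, 2 of 3 complex II genes, 1 of 5 in complex III, 2 of 11 in complex IV and 2 of 15 in ATP synthase. Scaling and background correction bore on these counts. Without background correction 32 genes fell (44.4%), against 22.3% of all genes. With median scaling 5 genes rose and 6 fell (6.94% and 8.33%), against 19.6% and 14.1% of all genes, and 58.3% of all calls were rises, against 42.9% with quantile normalization. Median scaling moved the median of all genes to 0.05, and relative to it the 72 genes had a median of -0.15, against -0.25 with quantile normalization. The count of falls was 10 or 9 without LPS replicate 1 or 2, and 13 or 11 without unstimulated replicate 1 or 2.

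Ndufaf7 fell most, with 190 and 172 with LPS, against 414 and 329 in unstimulated cells (-1.03 ± 0.22, adjusted p = 0.00418). It was the only one of the 72 genes past 2-fold, as 8.75% of all genes were downwards and 8.36% upwards. Ndufaf3 had 109 and 97.3 with LPS, against 183 and 206 in unstimulated cells (-0.91 ± 0.17, adjusted p = 0.00217). Ndufs7, a core iron-sulfur subunit, had 6387 and 6902 with LPS, against 11993 and 12847 in unstimulated cells (-0.90 ± 0.17, adjusted p = 0.00207). The LPS arrays lay below the unstimulated arrays in all 3 genes. Ndufb5, of the membrane arm, had 1734 and 1708 with LPS, against 3025 and 2993 in unstimulated cells (-0.81 ± 0.18, adjusted p = 0.00544). These 4 kept their calls whichever array was left out. Sdhb, the electron-carrying iron-sulfur subunit of complex II, had 5176 and 4292 with LPS, against 7890 and 8256 in unstimulated cells (-0.78 ± 0.20, adjusted p = 0.0113). Atp5h had 6746 and 6406 with LPS, against 10888 and 10918 in unstimulated cells (-0.73 ± 0.17, adjusted p = 0.00756). The calls of Sdhb, Atp5h and Ndufc1 (-0.75 ± 0.17) ended without LPS replicate 2 (adjusted p = 0.0974, 0.0574 and 0.0542) and with median scaling (adjusted p = 0.0752, 0.0897 and 0.11). That of Ndufb4 (-0.85 ± 0.22) ended without LPS replicate 1 or unstimulated replicate 2, with adjusted p up to 0.0958.

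Ndufb3 went the other way. It had 2726 and 2788 with LPS, against 1361 and 1774 in unstimulated cells (0.83 ± 0.18, adjusted p = 0.00555), and it kept its call whichever array was left out. With Dex alone it had 2578 and 2367 and with Dex plus LPS 3818 and 3907, so unstimulated cells had its lowest 6 h signals.

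Lists around the chain moved both ways with LPS at 6 h, where 16.2% of all 7791 genes rose and 21.6% fell. Of 70 mitochondrial ribosome genes 2 rose and 17 fell (2.86% and 24.3%), with a median of -0.27, so the share that fell was near that of all genes. Of 47 cytosolic ribosome genes 1 rose and 6 fell (2.13% and 12.8%, both below the shares of all genes), with a median of -0.18. In the tricarboxylic acid cycle list 3 rose and 7 fell of 19 (15.8% and 36.8%). Pdk1 (1.06 ± 0.24), Pdk3 (1.01 ± 0.28) and Cs (0.98 ± 0.24) rose, and Pdp1 (-1.46 ± 0.18), the mitochondrial NADP-linked enzyme Idh2 (-0.94 ± 0.17) and Idh3b (-0.92 ± 0.17) fell. Of 16 biogenesis regulators 5 rose and 3 fell (31.25% and 18.75%). Both GABP subunits rose (Gabpb1 1.66 ± 0.17, Gabpa 1.14 ± 0.30), as did the mitochondrial DNA-packaging factor Tfam (0.74 ± 0.18). Polg2, an accessory subunit of the mitochondrial DNA polymerase, Ppargc1b and the helicase Twnk fell (-1.83 ± 0.17, -1.62 ± 0.24 and -0.79 ± 0.18). Of 22 assembly factors with other symbols 3 rose and 3 fell (13.6% each way, below the shares of all genes). The largest fall was in Tmem126b of complex I assembly (-1.10 ± 0.17).

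Dex against unstimulated at 6 h raised 2 of 72 genes and lowered 0, against 3.22% and 3.58% of 7791 genes (limma; 14 had an unadjusted p under 0.05). The median change was 0.23, against -0.01 over all genes, and 58 of 72 changes were positive. Ndufaf4, a complex I assembly factor, had 3028 and 2330 with Dex, against 1469 and 1234 in unstimulated cells (0.98 ± 0.19, adjusted p = 0.0145). Ndufa7, an accessory subunit of complex I, had 9753 and 7560 with Dex, against 4292 and 5440 in unstimulated cells (0.83 ± 0.20, adjusted p = 0.0354). The groups did not overlap in either gene, and Dex replicate 1 was the higher Dex array in both. The call of Ndufa7 ended in 6 of the 8 fits that left out an array, all but those without Dex replicate 2 or unstimulated replicate 2 (adjusted p up to 0.167), and that of Ndufaf4 without Dex replicate 1 or unstimulated replicate 2 (adjusted p up to 0.0757). The number of genes that rose depended on which Dex array was left out. With median scaling 15 rose (20.8%) and 0 fell, against 15.3% and 2.03% of all genes, and 88.3% of all calls were rises, against 47.4% with quantile normalization. Median scaling moved the median of all genes to 0.27, and relative to it the 72 genes stood at 0.15, against 0.24 with quantile normalization. With median scaling over probes detected on all arrays the median of the 72 genes was 0.034, 41 changes were positive, and 1 gene rose and 1 fell.

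**Figure D5:**
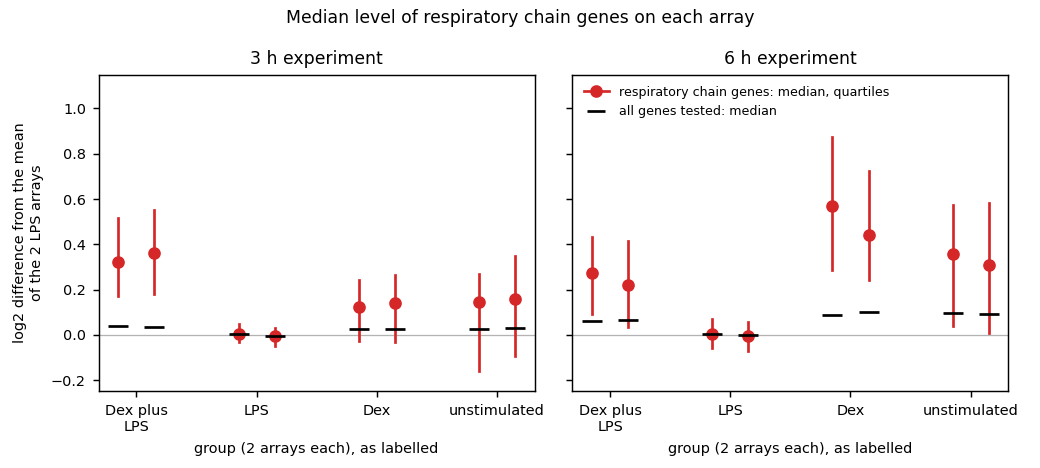
Median difference of the respiratory chain genes from the mean of the LPS arrays of the same experiment (log2; red points, with quartiles), with the median of all genes (black dashes), for each of the 16 arrays. The Dex plus LPS arrays at 3 h lie at 0.32 and 0.36 and at 6 h at 0.27 and 0.22. The Dex arrays at 6 h lie highest, at 0.57 and 0.44.

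Whether Dex acted differently with LPS than without was tested at 6 h as the difference of both Dex effects. Ndufaf3 alone of 72 genes had a larger Dex effect with LPS, against 0.193% of 7791 genes, and 0 had a smaller one, against 0.372% (limma; 4 had an unadjusted p under 0.05). Its Dex change was 0.99 ± 0.17 with LPS and -0.60 ± 0.17 without it (adjusted p = 0.00706 and 0.0609), and the difference was 1.60 ± 0.24 (adjusted p = 0.0238). Dex alone gave 123 and 132, against 183 and 206 in unstimulated cells, while the Dex plus LPS arrays at 199 and 212 lay above the LPS arrays at 109 and 97.3. Only without Dex replicate 2 did the call stand among the 8 fits that left out an array, and the adjusted p in the others reached 0.188.

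The remaining 3 h contrasts use the arrays that go against their labels. LPS against unstimulated, as labelled, gave 6 rises and 19 falls of 73 genes, against 16.4% and 18.4% of 8032 genes, and a median of -0.15, against -0.03 over all genes. The rises were led by Atp5d, the delta subunit of ATP synthase (0.68 ± 0.09), Ndufb9, an accessory subunit of complex I (0.56 ± 0.13), and Uqcrc1 (0.45 ± 0.08), and the falls by Ndufb10 (-0.84 ± 0.12), Ndufb7 (-0.79 ± 0.14) and Ndufs4 (-0.61 ± 0.08). With median scaling 13 rose and 5 fell (17.8% and 6.85%), against 27.9% and 8.43% of all genes, and 76.8% of all calls were rises, against 47.1% with quantile normalization. Without LPS replicate 1 or 2 the falls numbered 9 or 7, and without unstimulated replicate 2 10. Dex against unstimulated, as labelled, gave 2 rises and 3 falls, against 7.83% and 5.52% of genes. The rises were Atp5d (0.46) and Ndufs7 (0.38), and the falls Ndufb10 (-0.51), Atp5pb (-0.35) and Cox7a2l (-0.27). All 5 lost their calls when either Dex array was left out. With median scaling 13 rose (17.8%) and 0 fell, against 18.3% and 2.69% of all genes, and 87.2% of all calls were rises, against 58.7% with quantile normalization.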

How the data were processed

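Levels were measured on Illumina mouse bead arrays with 25697 probes. Per the labels' protocols, RNA was taken with Trizol and columns at 3 h and with columns at 6 h, treated with DNase and made into biotin-labelled cRNA. GenomeStudio is named in the submitters' processing notes, and its settings are not given in the sources used here. Per the file headers, the deposited unnormalized tables give an intensity and a detection p-value for each probe and array. The 3 h columns name the group and a letter but not the sample, so they served as replicates of their group, and 32 columns of bead numbers and standard errors were not used. A deposited 6 h table of cubic spline normalized intensity and the authors' processed table served as alternatives. The processed table's 3 h columns are intensity values in the order of the unnormalized table (rank correlation 1.0 on all 8 arrays, column medians 167.0 to 167.1). Its 6 h columns behave as log2 values centred per probe by the authors (Pearson correlation 0.960 to 0.982 with log2 deviations of the unnormalized table, column medians -0.20 to 0.16, 4003 empty probes), with the normalization behind them unknown.

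limma 3.58.1 (R 4.3.3) served for normexp background correction (offset 16, controls inferred from detection p-values), followed by quantile normalization within each experiment and log2. A probe was used where detected on both arrays of a group, and the brightest such probe stood for its gene. The share of probes detected on an array ran between 43.9% and 46.4% in the 3 h experiment and between 40.5% and 43.9% in the 6 h experiment. Platform annotation named 23846 probes with 1 symbol, 0 with several and 1851 not at all, and 23839 symbols matched RefSeq. limma's lmFit and eBayes were fitted with 1 mean per group on the 8 arrays of an experiment, or on all 16 for the difference between experiments, and adjusted by Benjamini-Hochberg over 8032, 7791 or 7458 genes. The number of arrays limits the precision. The median residual SD was 0.113 at 3 h and 0.202 at 6 h (log2). The procedure was tested on simulated data.

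The genes and lists were chosen with earlier results of these data known. Genes were named where they were among the 8 largest called changes each way in a comparison, called in both experiments, called at 2-fold, brightest in a complex, isoforms, called in a difference of effects (up to 5 each way), or known as a bound only. Up to 3 called genes each way were named per list. Other genes of the set named in the text were chosen after their values were seen. Alternatives were the scaling, background, detection filter, probe rule, both deposited normalized tables, a replicate block, each array left out, and 4 added after seeing the data, namely median scaling over probes detected on all arrays, a crossed replicate block, the 3 h column letter as a block and leaving out the doubted 3 h arrays.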

Additional observations from a re-analysis of the deposited data

Results flagged for a closer look

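A difference between effects passed limma's test for 4 genes. Ndufaf3 had a Dex effect 1.60 larger (log2) with LPS than without it at 6 h. The Dex effect under LPS was smaller at 6 h than at 3 h for Atp5o (-1.23), Ndufs4 (-1.05) and Atp5l (-0.91). The 3 differences between experiments rest on a fit that includes the 3 h arrays that go against their labels, and their part, like that of RNA extraction, was not tested apart from the fit without them, where no call was left at an adjusted p of 0.0914.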

How the results depend on the processing

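The rise with Dex plus LPS at 3 h gave 28 to 48 genes in the 8 alternatives run there on all arrays of both groups, and all 37 genes stayed positive in these and in the fits that left out an array. Other counts moved by over 1.5 times. The share of all genes called moved with the setting as well. A count given in this section without that share shows only how far the count moved. Median scaling gave 5 rises and 6 falls with LPS at 6 h, 15 rises with Dex at 6 h, 5 rises and 0 falls with Dex plus LPS against LPS at 6 h and 1 fall at 3 h. At 3 h it gave 13 rises and 5 falls with LPS, 13 rises and 0 falls with Dex, and 2 larger and 1 smaller effects for 6 h minus 3 h. Median scaling over probes detected on all arrays gave 2 rises with LPS at 6 h, 1 rise and 1 fall with Dex at 6 h and 1 fall with Dex at 3 h. The authors' processed values gave 6 rises with LPS at 6 h (8.33%, against 17.3% of all genes) and 4 with Dex (5.56%, against 4.51%). They also gave 2 falls with Dex plus LPS against LPS at 6 h (2.78%, against 7.09%) and 1 smaller Dex effect with LPS than without (1.39%, against 1.10%). With Dex at 3 h they gave 5 rises and 6 falls, and for 6 h minus 3 h 1 larger and 8 smaller effects. Without background correction 32 genes fell with LPS at 6 h (44.4%, against 22.3% of all genes) and 4 rose with Dex (5.56%, against 4.16%). In that setting 5 rose with Dex plus LPS against LPS at 6 h (6.94%, against 3.70%), and 1 Dex effect was smaller with LPS than without (1.39%, against 0.809%). With Dex at 3 h 5 rose and 6 fell there, and 1 effect was larger at 6 h than at 3 h. Without the detection filter 1 rose with Dex at 6 h (1.37%, against 1.06% of all genes). There 0 fell with Dex plus LPS against LPS at 6 h, against 1.59% of all genes. In the same setting 8 fell with LPS at 3 h, 0 rose and 0 fell with Dex at 3 h, and 0 were smaller for 6 h minus 3 h. The mean of probes gave 1 fall with Dex at 6 h (1.39%, against 4.03% of all genes) and 1 at 3 h. Without the doubted 3 h arrays 0 were smaller for 6 h minus 3 h. The cause was not tested.

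The cubic spline table gave 5 falls with LPS (6.94%, against 16.9% of all genes) and 0 rises with Dex (against 0.0128%). With Dex plus LPS against LPS it gave 0 rises (against 0.937%) and 3 falls (4.17%, against 0.988%). It gave 1 smaller Dex effect with LPS than without (1.39%, against 0.154%). It turned Ndufa7 (-0.10) and Ndufaf4 (-0.090) with Dex, Ndufaf3 (0.065), Ndufaf7 (0.068), Ndufb3 (-0.074) and Ndufb4 (0.023) with LPS, Ndufaf3 (-0.13) and Ndufv1 (-0.043) under LPS with Dex, and for Ndufaf3 also the Dex effect with LPS minus without (-0.14). Fkbp5 stood there at 426 and 414 in the Dex columns, against 414 and 464 in the unstimulated columns, so the table goes against its Dex labels. It follows its LPS labels, with Tnf at 53305 and 46097 with LPS, against 2064 and 1960 unstimulated. Il6 stood there at 432 and 457 with LPS, against 155 and 156 unstimulated. In unnormalized signal at 6 h Il6 had 4121 and 3874 with LPS, against 150 and 167 unstimulated, a wider gap.

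With the replicate number as a block at 6 h, 1 gene rose with Dex (1.39%, against 2.31% of all genes). With Dex plus LPS against LPS 1 rose (1.39%) and 0 fell there, against 2.18% and 3.63% of all genes. A larger Dex effect with LPS was called for 0 genes in that fit, against 0.0770% of all genes. Same-numbered arrays did not deviate together (correlations -0.22 to 0.01), so the numbers were not taken as pairs. Crossing the numbers for Dex against unstimulated, where the correlation was lowest, gave 0 rises. The 3 h columns carry letters, which match the numbered columns of the processed table (rank correlation 1 with the same letter, 0.909 to 0.917 with the other). Same-lettered arrays did not deviate together either (correlations -0.00055 to 0.029). With the letter as a replicate block, added after seeing the data, 38 genes rose and 0 fell with Dex plus LPS against LPS at 3 h. In that fit 0 fell with Dex at 3 h, and 0 were smaller for 6 h minus 3 h. The shares of all genes are not given for the letter block, so its counts show only how far they moved.

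Leaving out each array in turn gave these ranges. The share of all genes called in each such fit is not given, so the ranges show only how far the counts moved. With Dex plus LPS against LPS, 25 to 34 rose and 0 to 0 fell at 3 h, and 0 to 4 rose and 0 to 1 fell at 6 h. With LPS, 1 to 2 rose and 9 to 24 fell at 6 h, and 2 to 6 rose and 7 to 18 fell at 3 h. With Dex, 0 to 12 rose and 0 to 3 fell at 6 h, and 0 to 2 rose and 0 to 1 fell at 3 h. Dex effects were larger in 0 to 1 and smaller in 0 to 1 genes for LPS minus none, and larger in 0 to 2 and smaller in 0 to 5 for 6 h minus 3 h. A lone array was assumed to vary like the other groups.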
